A study of Mus musculus with 778 samples.

Results

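The 8 genes described here encode proteins of the contacts between the mouse oocyte and the granulosa cells around it. They are the connexins *Gja4* and *Gja1*, the cadherins *Cdh1*, *Cdh2* and *Cdh3*, the cadherin partner *Ctnnb1*, and the integrin subunits *Itga6* and *Itgb1*. The rows of the count table that carry these names were taken, 8 of 23201 genes. The choice rests on what the genes encode and not on a threshold, but was made with earlier results of these data known. Single oocytes of wild type female ICR mice were measured by single-cell RNA-seq in 5 stages defined by diameter. Non-growing oocytes (NGO, under 20 μm) came from mice 3 to 4 days old. Growing oocytes of 30 to 45 μm (GO1), 50 to 55 μm (GO2) and 60 to 65 μm (GO3) and fully-grown oocytes of over 70 μm (FGO) came from mice 3 to 4 weeks old. NGO therefore differ from the other 4 stages in mouse age as well as in growth, and these cannot be told apart. No genotype or treatment differed between the stages, and the labels state that oocytes were washed to remove somatic cells before they were picked.

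Gap junctions are channels made of connexins that join the cytoplasm of neighbouring cells. In the follicle, GJA4 (connexin 37) is the connexin of the oocyte side and GJA1 (connexin 43) joins the granulosa cells to one another. Cadherins hold cells together at adherens junctions by binding cadherins of the next cell, and beta-catenin, the product of *Ctnnb1*, links their tails to alpha-catenin and actin, besides its role in Wnt signalling. Integrins are pairs of an alpha and a beta subunit that bind the extracellular matrix. The pair of ITGA6 and ITGB1 is a laminin receptor, and both are known on the egg surface.

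The connexins were the members that lay furthest apart in level, and the stretch before their start sites is shown because one was read in every oocyte and the other in few. The set of RefSeq (GRCm38.p6) start sites used here has an entry for 4 of the 8 genes, *Gja4*, *Gja1*, *Ctnnb1* and *Itgb1*. It has none for *Cdh1*, *Cdh2*, *Cdh3* and *Itga6*. The 250 bases before the start are printed on the strand of the gene, *Gja4* from chr4:127314040-127314289 (minus strand) and *Gja1* from chr10:56377050-56377299 (plus strand).
Gja4: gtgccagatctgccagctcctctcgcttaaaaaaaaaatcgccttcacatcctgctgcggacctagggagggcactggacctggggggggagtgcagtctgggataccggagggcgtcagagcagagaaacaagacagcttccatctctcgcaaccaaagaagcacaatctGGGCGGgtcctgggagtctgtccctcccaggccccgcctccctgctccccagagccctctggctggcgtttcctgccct
Gja1: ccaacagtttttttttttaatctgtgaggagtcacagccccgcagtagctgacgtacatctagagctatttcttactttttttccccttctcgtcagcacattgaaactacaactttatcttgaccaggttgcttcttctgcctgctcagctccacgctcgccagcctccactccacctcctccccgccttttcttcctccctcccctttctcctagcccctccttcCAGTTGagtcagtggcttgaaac
Capitals mark matches, on either strand, to the E-box CANNTG, which basic helix-loop-helix factors bind, to the GC box GGGCGG, to TATAAA and to TAATTG. *Gja4* held 1 GC box, which starts 79 bases before the start site, and no E-box. *Gja1* held 1 E-box, 23 bases before the start, and no GC box, so no matches overlapped. Neither held TATAAA or TAATTG. Of the 32851 windows of this length in the RefSeq table, 66.2% held an E-box, 32.7% a GC box, 12.4% TATAAA and 7.17% TAATTG, so matches of either kind are common. The *Gja4* window was 61.2% G or C and that of *Gja1* 50.0%, against a mean of 53.2%, while the *Ctnnb1* windows were 74.4% and 74.8% G or C. These matches are a description of the letters and do not show a bound site.

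Counts are of unique molecular identifiers (UMIs), tags by which copies of 1 cDNA molecule are counted once. The table held 223 cells, of which 46 were NGO, 51 were GO1, 26 were GO2, 44 were GO3 and 56 were FGO, and each stage had 24976634 to 64311908 UMIs. For every gene the UMIs of all cells in a stage were added up and given per 1000000 UMIs of that stage (CPM), which is a share of the RNA read and not an amount per oocyte. Within a pooled stage, fewer molecules in each cell and fewer cells with the gene give the same sum. The cells carry a stage name but no library, so each stage is 1 sample, no difference between stages was tested, and the 95% intervals below cover counting error only. A gene counts as changed if one stage has 2 times the CPM of the other or more, and that higher value is 10 CPM or above (the size rule). In GO1 and GO2, 80.4% and 73.2% of all UMIs came from the 10 deepest cells, against 42.6% to 49.7% elsewhere, so the median over cells is given beside the sums of the 8 genes. The median cell had 110146 UMIs in GO1 against 540432 to 972294 in the other stages. Counts of GO1 cells above or below a level therefore rest on fewer UMIs per cell.

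*Gja4* was read in every one of the 223 oocytes and stayed at nearly the same share of the UMIs from the start to the end of growth. Its summed level began at 484 CPM in NGO, went to 549.9 in GO1, 524 in GO2 and 478 in GO3, and ended at 511 CPM in FGO, on 12188 to 32844 UMIs per stage. The largest step between neighbouring stages was a ratio of 1.14 (95% counting interval 1.11 to 1.16) from NGO to GO1, and the ratio of FGO to NGO was 1.06 (95% counting interval 1.03 to 1.08). The cells of a stage were spread more widely than the stages. From lowest to highest with the median between, they had 157.3, 443 and 761 CPM in NGO, 44.9, 328 and 845 in GO1, and 51.3, 446 and 1016 in GO2. The corresponding values were 272, 442 and 862 CPM in GO3 and 37.6, 385 and 785 CPM in FGO. All 5 ranges overlapped, and NGO and GO3 had the highest minima. The direction of the small steps depended on the weight of the cells. From NGO to GO1 the sums differed by 0.19 on the log2 scale, and the means over cells of each cell's CPM by -0.42. In GO1 the 10 deepest cells had 603 CPM against 333 CPM in the other 41, and in FGO they had 615 against 408 CPM in the other 46. The Spearman correlation of *Gja4* CPM with the UMIs of a cell was 0.51 over the 51 GO1 cells and 0.67 over the 56 FGO cells, as a description over cells that share libraries. The gene lies on chromosome 4 from 126988665 to 126991283 on the minus strand of NCBIM37 (mm9), with 1685 bases of exon. Of the UMIs of all listed connexin genes, *Gja4* held 96.3% to 97.02% in each stage. The other connexins stayed under 10 CPM in every stage, with *Gjb2* (connexin 26) at 3.84 to 9.58 CPM, *Gjb1* at 2.25 to 5.20 CPM and *Gjc1* at 0.801 to 4.99 CPM.

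**Figure D1:**
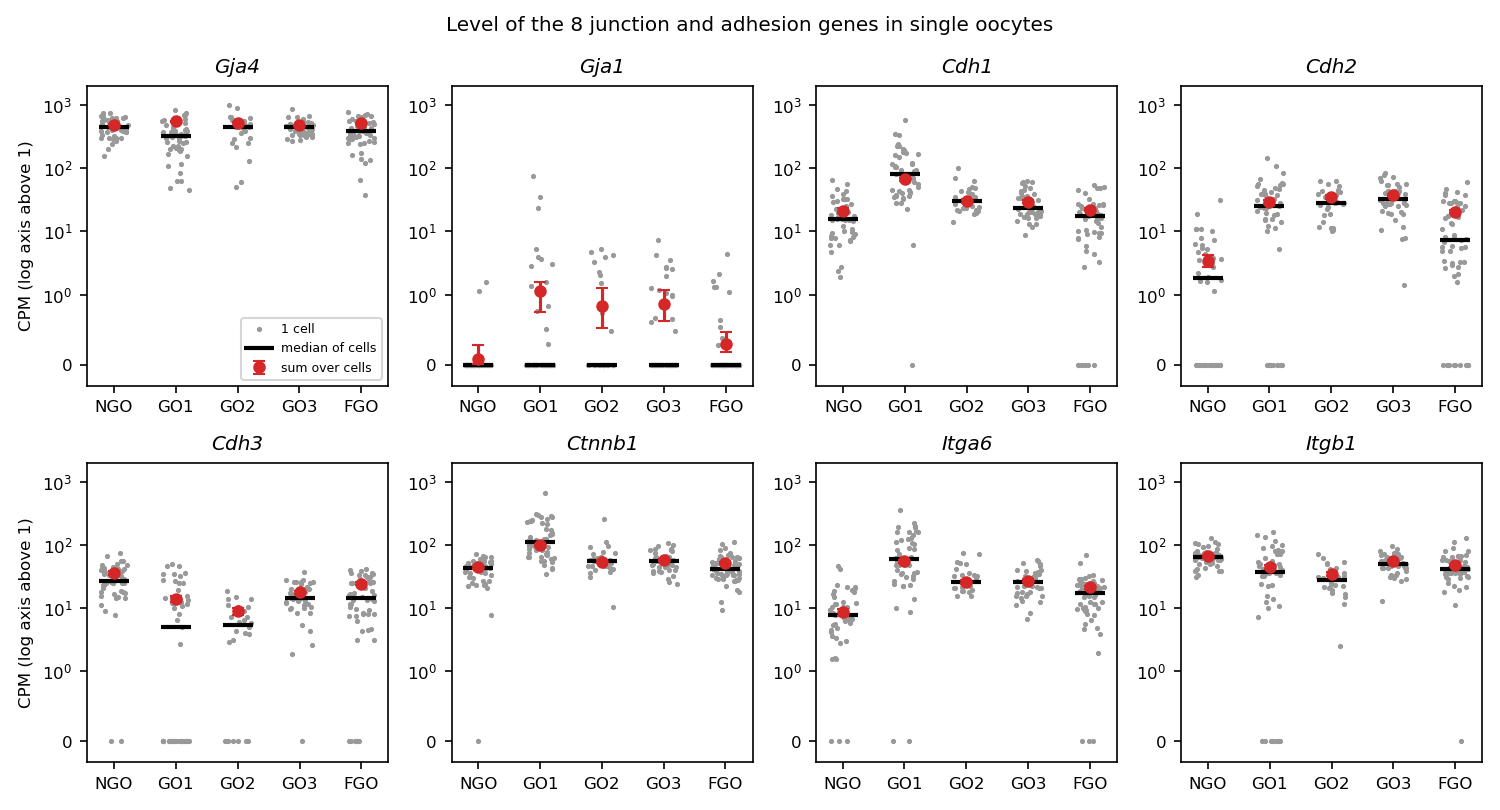
CPM (axis linear up to 1 and logarithmic above) of the 8 genes in the 5 stages, with each cell as a grey point, the median of cells as a black bar and the summed level with its 95% counting interval in red. Gja4 stays between 478 and 549.9 CPM while Gja1 stays at or under 1.12 CPM, and Cdh1, Ctnnb1 and Itga6 peak in GO1.

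*Gja1* was hardly read in these oocytes. It had 2, 30, 21, 43 and 19 UMIs in NGO, GO1, GO2, GO3 and FGO, which is 0.079 (95% counting interval 0.0096 to 0.287), 1.12 (0.757 to 1.60), 0.841 (0.520 to 1.29), 0.863 (0.625 to 1.16) and 0.295 (0.178 to 0.461) CPM. The median cell had 0 UMIs in every stage. A UMI was seen in 2 of 46 NGO, 15 of 51 GO1, 10 of 26 GO2, 16 of 44 GO3 and 10 of 56 FGO cells. With each cell thinned to 20000 UMIs, the share expected over all possible draws fell to 0.117%, 4.65%, 2.17%, 1.45% and 0.49% in the same order, which is near the level of 1 UMI. The cells with a UMI were the deeper ones, with a median of 376203 UMIs against 80946.5 in the other GO1 cells, and 1710769 against 627276.5 in FGO. The ratio of GO1 to NGO was 14.1, with a 95% counting interval of 3.58 to 122.01, but *Gja1* stayed under 10 CPM in all stages and so is not counted as changed under the size rule. The ratio of FGO to GO3 was 0.342 (95% counting interval 0.188 to 0.6001). *Gja1* lies on chromosome 10 (56097106 to 56110225, plus strand), with 3105 bases of exon.

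Markers of granulosa cells were set beside *Gja1*, since these cells are its known source in the follicle. Of the 20 markers listed, 11 had under 1 CPM in GO2, 13 in FGO, and 12 in each of the other stages. Among them, *Amh*, the anti-Müllerian hormone of granulosa cells, had 0 to 3 UMIs per stage, and *Foxl2*, their transcription factor, had 5 to 15 UMIs. Others were read more often while under 10 CPM, with 38 to 250 UMIs per stage of *Fshr*, 37 to 254 of *Inha* and 34 to 354 of *Kitl*. *Inhbb* was at 0 in NGO, *Amh* and *Gatm* in GO2, and *Gatm* and *Krt18* in GO3. The list summed to 39.1 CPM in NGO (cells 0 to 91.2), 225 in GO1 (0 to 354), 231 in GO2 (142.9 to 301), 234 in GO3 (138.7 to 393) and 132.4 in FGO (0 to 290.4). The marker with the highest level was *Esr2*, an oestrogen receptor, which held most of that sum in the 4 later stages but not in NGO, at 12.6, 168, 182, 185 and 83.4 CPM. *Cyp19a1*, the aromatase, had 1.11, 16.3, 13.3, 6.70 and 1.54 CPM, *Nr5a2* 6.91, 14.5, 8.05, 12.04 and 7.84 CPM, and *Krt8*, a keratin also known in oocytes, 7.58, 6.69, 8.97, 10.5 and 25.9 CPM. *Gja1* thus lay at the level of the low markers. Among the markers that reached 10 CPM, *Esr2*, *Cyp19a1* and *Nr5a2* were, like *Gja1*, lowest in NGO and next lowest in FGO, while *Krt8* was highest in FGO. The markers under 10 CPM had no common course. *Kitl*, *Cyp11a1*, *Hsd17b1*, *Fst* and *Inhbb* were also lowest in NGO and next lowest in FGO. *Inhba*, *Gatm*, *Wt1* and *Krt18* were highest in NGO, and the rest did neither. The other stages came in a different order in *Gja1* than in *Esr2*. Outside the list, *Cdh2* and *Pecam1* were also lowest in NGO and next lowest in FGO. In GO1 the median granulosa sum was 229 CPM in the 15 cells with *Gja1* and 175 CPM in the other 36, and without *Esr2* it was 54.7 and 42.8 CPM. The GO1 cell with the highest *Gja1* level (75.6 CPM) owed it to 3 UMIs among 39670, and it held 11 UMIs of granulosa markers and 202 CPM of *Gja4*. Leaving it out gave 1.01 CPM in GO1. The part of granulosa RNA in the *Gja1* values was not tested. The 11 theca and stroma markers had none at 10 CPM in any stage and summed to 22.2 CPM in NGO and 3.70 to 10.3 CPM in the other stages. Single cells lay higher, up to 269.7 CPM in NGO (median 15.5) and 95.7 CPM in GO1 (median 0). Of the 9 blood and endothelial markers *Pecam1* alone reached 10 CPM, while *Cdh5*, the endothelial cadherin, had 1 UMI in all 5 stages together and the haemoglobin genes *Hbb-b1* and *Hba-a1* were at 0. The 14 oocyte markers summed to 31637 CPM in NGO and 16856 to 25099 CPM in the others. Each of them had UMIs in every stage. By the size rule 7 of the 14 were higher in NGO than in GO1, and 1 was higher in GO1. *Sohlh1* had 374 CPM in NGO and 0.336 in GO1. Among the highest in any stage were the zona pellucida genes *Zp3* (4217 to 11226 CPM) and *Zp2* (640 to 4250 CPM). The growth factor gene *Gdf9* (4755 to 5681 CPM) and *Nlrp5* (968 to 2937 CPM) were also among them.

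**Figure D2:**
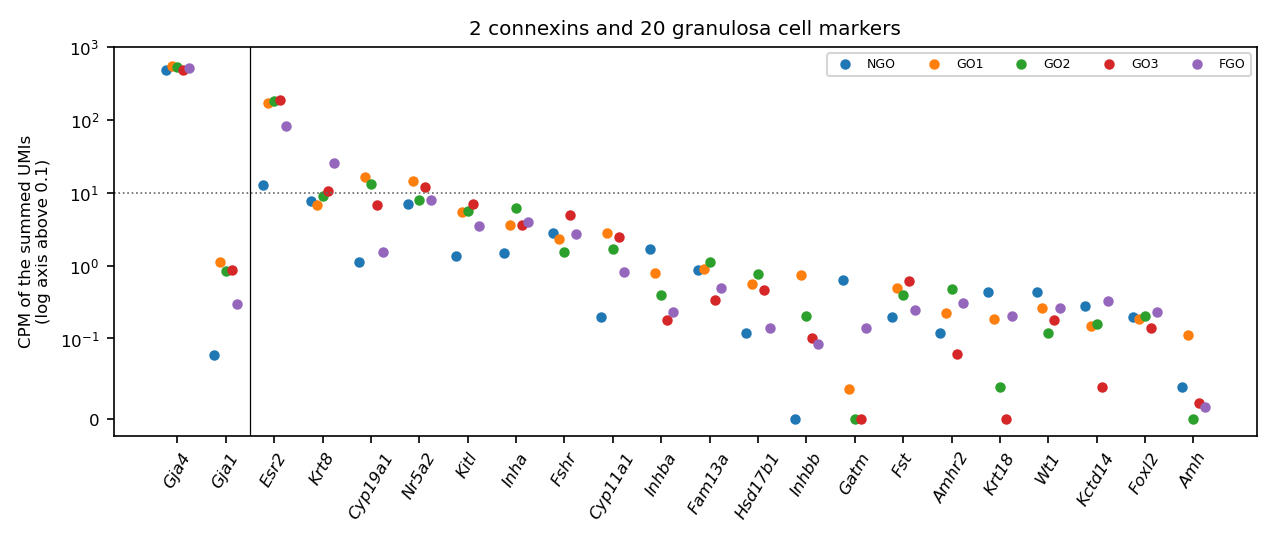
Summed CPM (axis linear up to 0.1 and logarithmic above) of the 2 connexins, left of the line, and of 20 granulosa cell markers, right of it, with a point for each stage and a dotted line at 10 CPM. Gja1 sits among the low markers, and Esr2 is the marker with the highest level.

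The 3 cadherins followed 3 different courses, and the one with the most UMIs differed between stages. *Cdh3* (P-cadherin) led in NGO, *Cdh1* (E-cadherin) in GO1 and *Cdh2* (N-cadherin) in GO3, and the 3 lay closest together in FGO. In GO2 the leader depended on the weight of the cells, *Cdh2* in the sums and *Cdh1* in the means over cells (36.02 CPM against 31.3) and without the 10 deepest cells (33.02 against 28.2). Of their summed UMIs in NGO, *Cdh3* held 58.8% (95% binomial interval 56.2 to 61.3), *Cdh1* 35.5% (33.1 to 37.96) and *Cdh2* 5.74% (4.62 to 7.03). In GO1 *Cdh1* held 60.7% (58.9 to 62.5), *Cdh2* 26.6% (24.97 to 28.2) and *Cdh3* 12.7% (11.5 to 13.98). In GO2 the order was *Cdh2* with 47.2% (44.9 to 49.5), *Cdh1* with 40.9% (38.6 to 43.2) and *Cdh3* with 11.9% (10.4 to 13.4). GO3 kept that order, with 44.6%, 34.7% and 20.8%. In FGO *Cdh3* held 36.03% (34.6 to 37.5), *Cdh1* 33.05% (31.6 to 34.5) and *Cdh2* 30.9% (29.5 to 32.3). As means over cells FGO had 18.2 CPM of *Cdh1*, 16.8 of *Cdh3* and 13.9 of *Cdh2*, so the order of *Cdh1* and *Cdh3* there also turned with the weight of the cells. Counted by oocyte the leaders were those of the sums in NGO, GO1 and GO3, and GO2 was split, with 13 cells led by *Cdh1* and 12 by *Cdh2*. *Cdh3* had the most UMIs of the 3 in 30 of 46 NGO cells and in 0 of 51 GO1 and 0 of 26 GO2 cells, *Cdh1* in 38 of 51 GO1 cells, and *Cdh2* in 27 of 44 GO3 cells. FGO cells were mixed, with 21 led by *Cdh3*, 17 by *Cdh1*, 12 by *Cdh2* and 6 with a tie or no UMI. Summed over the 3 genes, the level was 60.2, 109.9, 74.1, 84.8 and 66.8 CPM in the 5 stages.

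**Figure D3:**
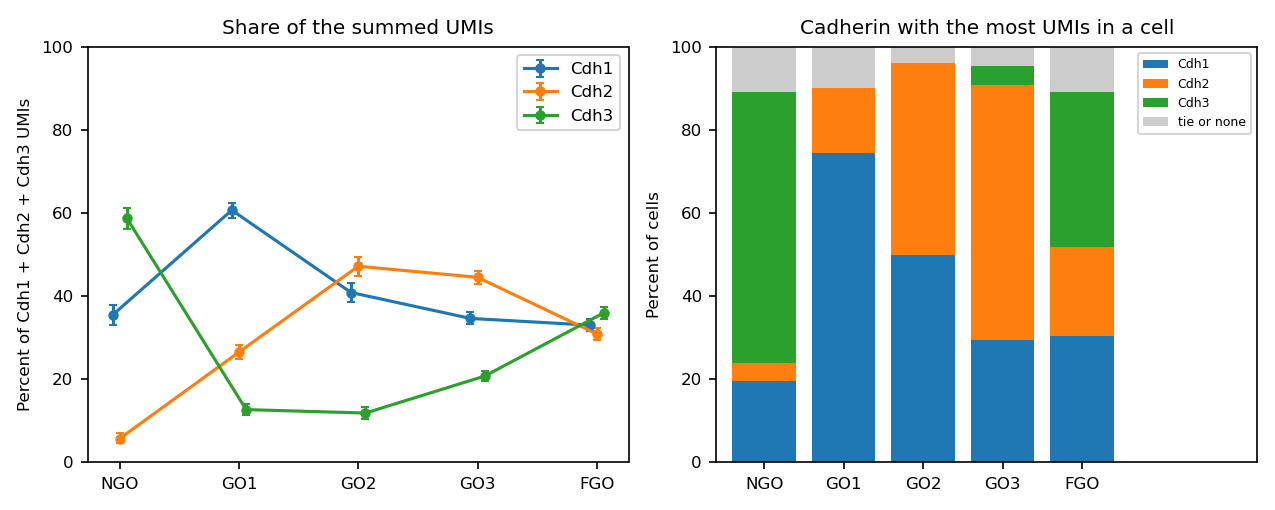
Left, share of each of 3 cadherins in their summed UMIs by stage with 95% binomial intervals of counting error. Right, percent of cells in which each has the most UMIs, with ties and cells without a UMI in grey. In the summed UMIs Cdh3 leads NGO (58.8%), Cdh1 GO1 (60.7%) and Cdh2 GO2 (47.2%), where as many as 13 of 26 cells are led by Cdh1, and the 3 lie between 30.9% and 36.03% in FGO.

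*Cdh1*, the cadherin of most epithelia, had 21.4 CPM in NGO (95% counting interval 19.6 to 23.2), 66.8 in GO1 (63.7 to 69.9), 30.3 in GO2 (28.2 to 32.5), 29.4 in GO3 (27.9 to 30.9) and 22.1 in FGO (20.9 to 23.3). The cells ran from 1.91 to 65.4 CPM in NGO with a median of 15.7, from 0 to 580 CPM in GO1 with a median of 80.9, and from 13.9 to 102.04 CPM in GO2 with a median of 30.2. In GO3 they ran from 8.89 to 63.8 CPM (median 23.7) and in FGO from 0 to 55.1 CPM (median 17.7). The GO1 cells were the high ones. Of 51, 28 were above the highest NGO cell and 20 above the highest GO2 cell, although the ranges overlapped. *Cdh1* was 3.13-fold (95% counting interval 2.84 to 3.45) higher in GO1 than in NGO, and 2.20-fold (2.02 to 2.40) higher in GO1 than in GO2. FGO ended at 1.03-fold of NGO, with a counting interval of 0.936 to 1.14 that holds no change. In cells thinned to 20000 UMIs, a *Cdh1* UMI was expected in 30.7% of NGO, 76.9% of GO1, 49.2% of GO2, 42.5% of GO3 and 28.7% of FGO cells, and unthinned it was 89.3% or more in every stage. The gene lies on chromosome 8 (NCBIM37, 109127251 to 109194146, plus strand), 46442 bases after the end of *Cdh3* (109034791 to 109080808, plus strand).

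*Cdh3*, its neighbour in tandem, went the other way at the onset of growth. Its summed level was 35.4 CPM in NGO (95% counting interval 33.1 to 37.8), 13.98 in GO1 (12.6 to 15.5), 8.81 in GO2 (7.68 to 10.1), 17.6 in GO3 (16.5 to 18.8) and 24.1 in FGO (22.9 to 25.3). Medians over cells were 26.9, 4.97, 5.32, 14.4 and 14.5 CPM, and every stage had cells at 0. The highest cells had 74.2, 50.4, 18.2, 36.4 and 41.5 CPM. NGO exceeded GO1 in *Cdh3* by 2.53-fold (95% counting interval 2.24 to 2.86), and 42 of 51 GO1 cells were below the NGO median. It then rose 2.0007-fold from GO2 to GO3, with a counting interval of 1.72 to 2.33 that reaches below the limit, and 14 of 44 GO3 cells were above the highest GO2 cell. FGO had 0.681 times the NGO level (95% counting interval 0.626 to 0.74). Depth moved with *Cdh3* inside stages, with a Spearman correlation of 0.52 over 46 NGO, 0.69 over 26 GO2 and 0.66 over 56 FGO cells. In FGO the 10 deepest cells had 29.2 CPM and the other 46 had 18.997 CPM.

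*Cdh2*, best known from neural and mesenchymal cells, was the member that differed most between NGO and the later stages among those that reached 10 CPM. It had 3.45 CPM in NGO (95% counting interval 2.77 to 4.26), 29.2 in GO1 (27.2 to 31.3), 34.99 in GO2 (32.7 to 37.4), 37.8 in GO3 (36.1 to 39.5) and 20.7 in FGO (19.6 to 21.8). From lowest to highest the cells ran from 0 to 31.2 CPM in NGO (median 1.80), 0 to 142.99 in GO1 (25.2), 10.2 to 63.4 in GO2 (27.8), 1.40 to 82.96 in GO3 (32.4) and 0 to 61.4 in FGO (7.41). NGO was low and the ranges overlapped, with 21 of 51 GO1 cells above the highest NGO cell. In GO1 it stood 8.46-fold above NGO (95% counting interval 6.77 to 10.7), and FGO was still 5.99-fold (4.82 to 7.52) above NGO. From GO3 to FGO the level was 1.83-fold (1.70 to 1.96) lower in the sums, which is short of the limit, and 2-fold or more lower in the means over cells, where the log2 change was -1.38. FGO cells were spread out, with a lower quartile of 2.68 CPM and an upper quartile of 24.9 CPM. The 10 deepest FGO cells had 26.1 CPM and the other 46 had 15.3 CPM, with a Spearman correlation of 0.52 between level and depth over the 56 cells. A *Cdh2* UMI was seen in 58.7% of NGO, 80.4% of GO1, 100% of GO2, 100% of GO3 and 82.1% of FGO cells, and after thinning to 20000 UMIs the expected shares were 6.98%, 41.4%, 44.5%, 48.5% and 21.6%.

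*Ctnnb1* (beta-catenin) had its highest level in GO1, as *Cdh1* did. It had 43.8 CPM in NGO (95% counting interval 41.3 to 46.5), 99.95 in GO1 (96.2 to 103.8), 53.7 in GO2 (50.8 to 56.6), 56.98 in GO3 (54.9 to 59.1) and 50.7 in FGO (48.9 to 52.4). The cells of NGO ran from 0 to 70.1 CPM (median 42.8), those of GO1 from 34.3 to 655 (111.6), of GO2 from 10.5 to 255 (56.2), of GO3 from 23.97 to 106.2 (55.1) and of FGO from 9.24 to 111.3 (41.98). Again the GO1 cells were high, with 38 of 51 above the highest NGO cell. GO1 stood 2.28-fold above NGO (95% counting interval 2.13 to 2.45). GO1 was then 1.86-fold (1.74 to 1.99) above GO2, under the limit in the sums and above it in the means over cells, where the log2 change was -1.15. Between mean-centred log2(CPM + 1) courses over the 5 stages, the root mean square difference was 0.20 for *Ctnnb1* and *Cdh1*, the smallest of the 21 pairs among the 7 genes with at least 10 CPM, and the largest was 1.72, for *Cdh2* and *Cdh3*. *Ctnnb1* lies on chromosome 9 (120838334 to 120869625, plus strand) and shares 240 exon bases with *Ulk4* on the other strand. The sources used here do not say whether counting kept the strand, so reads of that stretch cannot be assigned to one of the 2 genes. *Ulk4* had 44.2 CPM in NGO and 6.09 to 12.5 CPM later, the opposite direction from NGO to GO1.

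The 2 integrin subunits took opposite directions from NGO to GO1, and in the sums both fell from GO1 to GO2 and from GO3 to FGO. From GO2 to GO3 *Itgb1* rose, while *Itga6* was at 1.05-fold, with a 95% counting interval of 0.954 to 1.15 that holds no change. For *Itga6* 6 of 9 other ways of processing gave the other sign in that step. *Itga6*, the alpha subunit, had 8.49 CPM in NGO (95% counting interval 7.39 to 9.71), 54.5 in GO1 (51.7 to 57.4), 25.6 in GO2 (23.7 to 27.7), 26.9 in GO3 (25.5 to 28.4) and 21.1 in FGO (20.0 to 22.3). Its cells ran from 0 to 45.4 CPM in NGO (median 7.61), 0 to 353 in GO1 (58.5), 15.3 to 74.6 in GO2 (25.3), 6.71 to 57.9 in GO3 (25.5) and 0 to 69.6 in FGO (17.5). Of 51 GO1 cells, 33 were above the highest NGO cell. The level rose 6.42-fold (95% counting interval 5.56 to 7.44) from NGO to GO1, fell 2.13-fold (1.94 to 2.34) to GO2 and was 2.49-fold (2.15 to 2.89) higher in FGO than in NGO. As a mean over cells, the log2 change from NGO to FGO was 0.78, below the limit. *Itgb1*, the beta subunit that pairs with many alpha subunits, changed in no step by the size rule. It had 65.3 CPM in NGO (62.2 to 68.5), 44.5 in GO1 (42.03 to 47.1), 34.03 in GO2 (31.8 to 36.4), 55.6 in GO3 (53.5 to 57.7) and 48.3 in FGO (46.6 to 50.0). Its medians over cells were 63.1, 36.8, 27.8, 50.2 and 41.8 CPM. The lowest cells had 30.8, 0, 2.47, 12.7 and 0 CPM and the highest 130.1, 162, 70.8, 94.6 and 129.4 CPM, so all stages overlapped. In GO1, 19 of 51 cells were below the lowest NGO cell. A UMI of *Itgb1* was read in 41 of the 51, and the part of their low depth in that count was not tested. From GO2 to GO3 *Itgb1* was 1.63-fold (1.51 to 1.77) higher. There were 7.69 UMIs of *Itgb1* for each of *Itga6* in NGO, and the number was 0.817 in GO1, rising to 1.33, 2.07 and 2.29 in the following stages. *Itgb1* lies on chromosome 8 (131209554 to 131257100, plus strand), with 4081 bases of exon. *Itga6* lies on chromosome 2 (71583673 to 71696473, plus strand), with 9025 bases of exon.

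The peak of *Cdh1*, *Ctnnb1* and *Itga6* in GO1 was carried by some oocytes more than by others. Among the 10 deepest GO1 cells, 3 had 148.5 to 242 CPM of *Cdh1* and the other 7 had 22.6 to 70.2 CPM. Those 3 cells were also the 3 highest in *Ctnnb1* (244 to 290.1 CPM against 34.3 to 85.5), *Itga6* (125.1 to 198 against 21.96 to 55.9), *Cdh3* (31.9 to 46.7 against 4.97 to 18.996) and *Itgb1* (61.3 to 83.9 against 22.3 to 47.5). They did not stand apart in *Gja4* (478 to 740.04 CPM against 273 to 845) or *Cdh2* (11.3 to 38.5 against 14.2 to 56.6). The deepest of the 3, with 2380942 UMIs, held 23.8% of the *Cdh1*, 21.8% of the *Ctnnb1* and 25.9% of the *Itga6* UMIs of GO1, with 8.90% of all UMIs. Without it *Cdh1* was 2.62-fold, *Itga6* 5.22-fold and *Ctnnb1* 1.96-fold above NGO, so that *Ctnnb1* no longer passed 2-fold, and *Cdh1* was 1.84-fold and *Itga6* 1.73-fold above GO2, so that neither passed. In the 41 GO1 cells outside the 10 deepest, the medians were 85.9 CPM for *Cdh1*, 118.4 for *Ctnnb1* and 60.6 for *Itga6*, above the 40.7, 70.8 and 41.4 CPM of the 10. Over the 51 GO1 cells the Spearman correlation was 0.46 between *Cdh1* and *Itga6*, 0.37 between *Cdh1* and *Ctnnb1* and 0.24 between *Ctnnb1* and *Itga6*, as a description over cells that share libraries and vary in depth. With each cell thinned to 20000 UMIs these were 0.22, 0.096 and 0.14. Leaving out the 25% of cells of each stage with the highest share of granulosa markers, *Esr2* not counted, gave a log2 change of 0.65 for *Ctnnb1* and 1.11 for *Cdh1* from NGO to GO1, and of -0.48 for *Cdh1* from GO1 to GO2. With *Esr2* counted, the NGO to GO1 changes were 1.78 for *Cdh1* and 1.13 for *Ctnnb1*, against 1.64 and 1.19 with all cells. *Cdh1* from GO1 to GO2 was then at -1.09. The values thus moved with the choice of cells, and the part of depth and of granulosa markers in them was not tested.

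Counted over the steps, 5 of the 7 members with at least 10 CPM in either stage changed from NGO to GO1, 4 of them higher in GO1 (*Cdh1*, *Cdh2*, *Ctnnb1* and *Itga6*) and 1 higher in NGO (*Cdh3*). In NGO *Cdh2* (3.45 CPM) and *Itga6* (8.49 CPM) were under 10 CPM, so they were counted only through the later stage. Of the 8527 genes of the table tested the same way, 46.3% changed, with 20.6% higher in GO1 and 25.7% higher in NGO. Of the changed genes 44.5% were thus higher in GO1, and this share was 50.1% with scaling factors from the median (DESeq2) of the gene ratios in place of total UMIs, 53.2% with those from their trimmed mean (TMM) and 38.9% as means over cells. The median log2 change was 1.19 over the 7 members and -0.15 over all tested genes. From GO1 to GO2, 2 of 7 members changed, *Cdh1* and *Itga6*, both lower in GO2, against 3.14% of 7356 genes. Of the changed genes, 3.46% were higher in GO2. With DESeq2 or TMM factors no member passed in this step, the share of changed genes that were higher was 14.6% and 11.4% (25.2% as means over cells), and *Cdh1* lay at -0.95 and -0.97 on the log2 scale. From GO2 to GO3 *Cdh3* changed, 1 of 7, against 4.35% of 7334 genes, and it too missed the limit with DESeq2 or TMM factors. Of the changed genes of this step, 76.8% were higher in GO3, or 59.2% with DESeq2 and 66.8% with TMM factors. From GO3 to FGO 0 of 7 changed, against 5.96% of 7622 genes. Between the start and the end of growth, from NGO to FGO, 2 of 7 were higher in FGO, *Cdh2* and *Itga6*, against 27.3% of 8132 genes in either direction. Of the changed genes 41.4% were higher in FGO, and this share was 48.98% with DESeq2 and 56.8% with TMM factors.

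**Figure D4:**
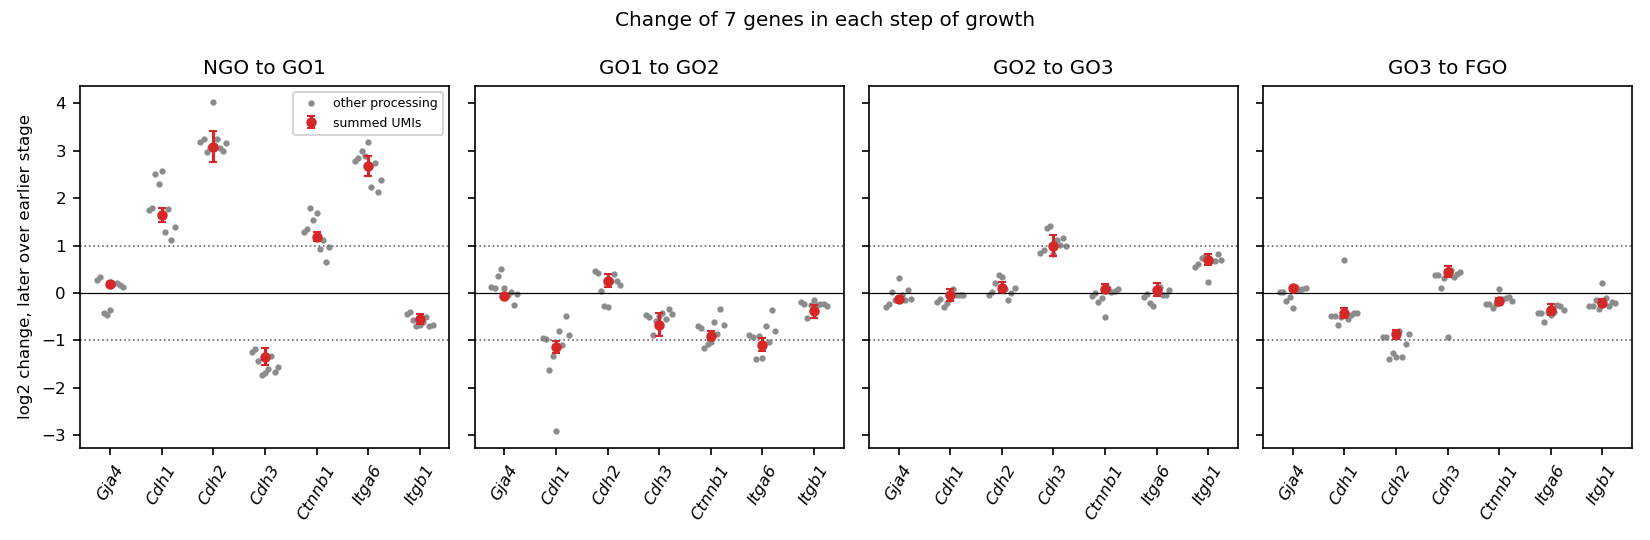
log2 change of 7 members (Gja1 left out as under 10 CPM) in each step of growth, later over earlier stage, with 95% counting intervals in red and the values under 9 other ways of processing (scaling, weight or choice of cells) in grey. Dotted lines mark 2-fold. Cdh1, Cdh2 and Itga6 stay above the upper line and Cdh3 below the lower one from NGO to GO1 under each way shown.

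The genes that work with the members were taken from lists of their pathways, counted from NGO to GO1, where 20.6% of all tested genes were higher in GO1 and 25.7% in NGO. Their levels are sums over cells, in which the deepest cells weigh most. A gene under 10 CPM in one of the 2 stages was counted only through the other, which favours a call in that direction. Of 13 adherens junction partners with at least 10 CPM in either stage (19 listed, *Ctnnb1* among them), 8 were higher in GO1 and 1 in NGO, with a median log2 change of 1.35 against -0.15 over all tested genes. *Ctnna3*, an alpha-catenin, rose 13.1-fold from 12.3 to 161 CPM (95% counting interval 11.7 to 14.7), *Nectin3* 4.20-fold from 23.97 to 100.6 CPM and the catenin-like *Ctnnal1* 3.53-fold from 21.2 to 74.8 CPM. *Jup*, or plakoglobin, the catenin of desmosomes, went from 37.6 to 7.63 CPM, 4.93-fold (4.24 to 5.77) higher in NGO, and was back at 19.2 CPM in FGO. Of 4 classical cadherins tested (13 listed), 3 of which are members, *Cdh4* rose 3.94-fold from 2.90 to 11.4 CPM. Of 6 tested genes of beta-catenin turnover (7 listed), 2 were higher in GO1, a share not far from that of all genes, and 0 in NGO. The 2 were *Apc*, the scaffold of the complex that marks beta-catenin for decay, with 8.06 and 36.9 CPM, and *Axin2*, a scaffold and a Wnt target gene, with 28.1 and 123.02 CPM. *Axin2* stayed at 108.8 to 142.6 CPM up to FGO while *Apc* was at 15.9 to 17.6 CPM. *Csnk1a1* (221 and 115.8 CPM) and *Btrc* (178 and 298 CPM) stayed inside 2-fold.

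On the matrix side, 4 of 5 integrin subunits tested were higher in GO1 (26 listed, with *Itga6* among the 4 and *Itgb1* as the fifth). *Itga6*, *Itga8* and *Itgb3* were under 10 CPM in NGO, so they were counted only through GO1, which favours a rise. Integrins under 10 CPM in both stages were not counted. *Itga9* was the listed integrin with the highest CPM in every stage, at 75.8, 286, 358, 284 and 208 CPM. *Itga8* had 4.13, 14.5, 10.1, 9.45 and 3.37 CPM and *Itgb3* 6.75, 16.6, 11.7, 14.5 and 12.6 CPM in the 5 stages. Of 7 tested genes of laminins, collagens and other matrix ligands (21 listed), 4 were higher in GO1 and 0 in NGO. They were the laminin chains *Lamc1* (10.8 to 66.8 CPM, 6.19-fold, 95% counting interval 5.44 to 7.06), *Lama4* (8.65 to 38.3 CPM), *Lamb1* (59.4 to 259.7 CPM) and *Lamb2* (18.1 to 44.7 CPM). Of 11 tested partners of integrins inside and beside the cell (15 listed), 0 were higher in GO1, 6 were higher in NGO and 5 were neither, with a median log2 change of -1.19. Among the 5, *Fermt2*, a kindlin that activates integrins, had 284.5 CPM in NGO and 503 in GO1. *Zyx*, a protein of focal adhesions, was 9.99-fold (7.25 to 14.1) higher in NGO, with 15.7 CPM against 1.57. *Ilk*, the integrin-linked kinase, had 20.6 CPM against 4.34. *Cd9*, the tetraspanin of the egg surface needed for fusion with sperm, had 906 CPM in NGO, 307 in GO1 and 749 in FGO, and *Cd81* had 32.3, 4.41 and 25.9 CPM. Of 7 tested genes of tight junctions and desmosomes (25 listed), 1 was higher in GO1 and 4 in NGO. The 1 was *Tjp1*, which is also counted among the adherens junction partners higher in GO1. *Cldn6*, a claudin, had 352 UMIs in NGO (13.97 CPM) and 0 in GO1, at least 124.6-fold higher in NGO with 3 UMIs over the stage taken as the limit of that 0. The desmosome gene *Pkp2* was 11.9-fold (9.66 to 14.7) higher in NGO, *Cldn4* 3.41-fold (3.11 to 3.74), and *Tjp1* rose 3.26-fold (2.71 to 3.94) to 19.3 CPM in GO1. Of the connexin and pannexin genes (23 listed), 2 were tested. *Gja4*, the 1 connexin among them, did not change. *Panx1*, a pannexin, was 2.64-fold (2.37 to 2.95) higher in NGO, at 45.5 against 17.2 CPM.

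**Figure D5:**
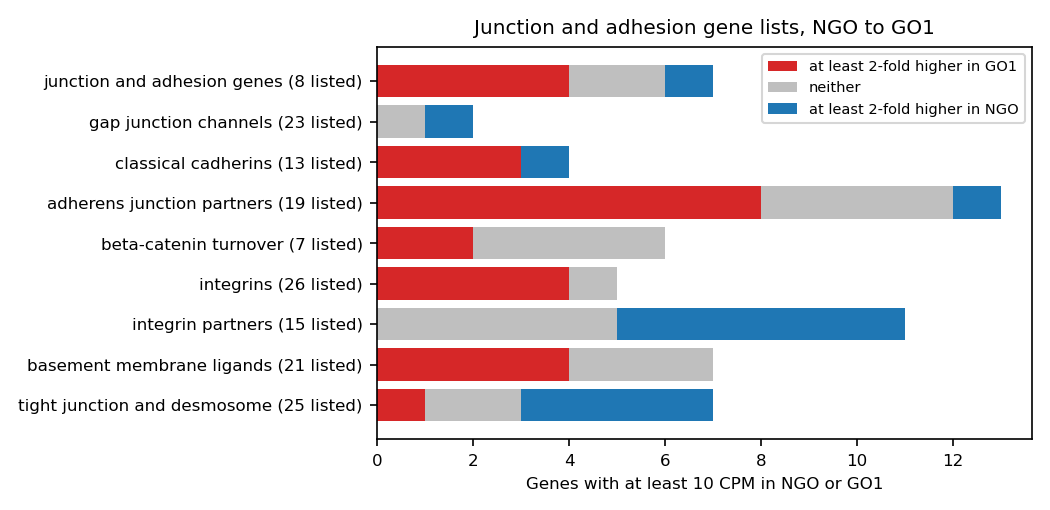
Number of genes of each list at least 2-fold higher in GO1, at least 2-fold higher in NGO or neither, among those with at least 10 CPM in NGO or GO1, with the size of the list in brackets. Adherens junction partners, integrins and basement membrane ligands hold 8, 4 and 4 genes higher in GO1, and integrin partners hold 0. A gene under 10 CPM in one stage is counted only through the other.

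For the 7 members that reached 10 CPM, the most similar courses over the 5 stages were sought among 8664 other genes of that level, by the root mean square (RMS) difference of mean-centred log2(CPM + 1). *Psma4*, a proteasome subunit gene, and *Rnf216* were closest to *Gja4*, at RMS 0.024 and 0.029. *Sfpq*, a splicing factor gene, was closest to *Cdh1* at 0.037, with 22.1, 74.6, 32.8, 32.4 and 24.5 CPM, followed by *Scaf8* at 0.082. The closest to *Cdh2* were *Mest* (RMS 0.047, with 3.37, 27.7, 34.2, 35.02 and 21.1 CPM), an imprinted gene, and *Pecam1* (0.060, with 4.60, 37.6, 40.4, 48.8 and 26.7 CPM), a homophilic adhesion molecule of endothelium. *Cdh3* was most like *Scrn3* (0.075) and *Zfp27* (0.085), and *Ctnnb1* most like *Atxn2* (0.049) and *Crk* (0.055), an adaptor of adhesion signalling. *Itga6* was most like *Scaf4* (0.024) and *Tapt1* (0.056), and *Itgb1* most like *Zbtb44* (0.023) and *Ptges3* (0.079).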

How the data were processed

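Single-cell RNA-seq UMI counts of 223 mouse oocytes in 5 stages were analysed as deposited. The authors pooled barcoded cells in 4 RNA libraries, mapped reads to mm9 with Tophat and counted UMIs per gene, so the deposited values are raw counts that are not normalized. Whether counting kept the strand is not given in the sources used here. The series design names 296 cells, and the table holds 223, all within the limits stated by the authors (over 3000 genes, 20000 to 4000000 transcripts). Stages came from column names. Nothing links cells to libraries, so shared barcodes could not be counted, each stage is 1 sample, and no test or p-value is given. No doublet caller was run on these hand-picked cells. Spike-in reads and the matched DNA assay were not analysed here.

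Counts were summed per stage and scaled to CPM. Intervals (95%, exact Poisson for levels, exact binomial for ratios and shares) cover counting error only. The size rule (2-fold, 10 CPM in the higher stage) was checked on simulated counts. These had no spread between cells and changes well past 2-fold in genes of 50 CPM or more. The check therefore does not cover changes near the limit, low genes or single cells that carry a change. A count of 0 was given a limit of 3 UMIs. The 8 genes and the lists were chosen with earlier results of these data known. Named were the 8 genes, at most 4 genes of each related list that reached 10 CPM, by the largest absolute log2 change from NGO to GO1, at most 4 of each marker list by highest CPM, and for each member the 2 genes with the closest course. *Amh*, *Foxl2*, *Fshr*, *Inha*, *Kitl*, *Inhba*, *Inhbb*, *Gatm*, *Krt18*, *Wt1*, *Cyp11a1*, *Hsd17b1*, *Fst*, *Sohlh1*, *Ulk4*, *Fermt2*, *Cdh5*, *Hbb-b1*, *Hba-a1*, *Gjb1*, *Gjb2* and *Gjc1* were named after their values were seen. Alternatives were other scaling factors (DESeq2 1.42.0, edgeR 4.0.16), the mean over cells, thinned cells, fewer cells, and other limits. Gene positions are those of GENCODE vM1 on NCBIM37. Software was scipy 1.17.1, pandas 2.3.3 and numpy 2.4.6 under Python 3.11.15, and R 4.3.3.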

Additional observations from a re-analysis of the deposited data

How the results depend on the processing

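From NGO to GO1, 5 members changed with total UMIs, with DESeq2 or TMM factors and as means over cells. *Ctnnb1* dropped out, leaving 4, with 26 cells per stage, without the 25% of cells highest in granulosa markers with *Esr2* not counted, and without the GO1 cell with the most *Cdh1* UMIs, the last 2 being chosen after seeing the data. A limit of 50 CPM left 3, and no filter gave 6, with *Gja1*. From GO1 to GO2 the 2 changes fell to 0 with DESeq2 factors, TMM factors, 26 cells per stage, those 25% left out, or without that GO1 cell, and 1.5-fold gave 4. Means over cells and thinned cells gave 3, adding *Ctnnb1*, and without the 10 deepest cells *Ctnnb1* passed and *Itga6* did not (log2 change -0.90). From GO2 to GO3 the 1 change fell to 0 with DESeq2 or TMM factors, with thinned cells and at 50 CPM, and 1.5-fold gave 2. From GO3 to FGO, where 0 changed, *Cdh2* gave 1 as a mean over cells, without the 10 deepest cells, with thinned cells, without the 25% highest in granulosa markers (*Esr2* counted or not) or at 1.5-fold, and *Gja1* gave 1 with no filter. From NGO to FGO the 2 changes became 1 (*Cdh2*) as means over cells and 0 at 50 CPM, and were 3 with thinned cells (*Cdh3* lower in FGO, log2 change -2.28 against -0.55) and with no filter (*Gja1*). The causes were not tested, other than that a higher limit admits fewer genes. Of 355 recomputed changes of single members, 198 stayed within the counting interval of the main value, the others moved outside it and 46 took the other sign, none of them a called change. Against total UMIs, the median of all genes shifted on the log2 scale by 0.10, 0.19, -0.15, -0.06 and 0.08 with DESeq2 factors and by 0.16, 0.17, -0.09, -0.06 and 0.17 with TMM factors, in the steps NGO to GO1, GO1 to GO2, GO2 to GO3, GO3 to FGO and NGO to FGO. Thinned *Cdh1* and *Cdh3* values rest on few UMIs of 1 draw. With 1 pooled sample per stage, the spread between mice or libraries is unknown. No paired analysis was possible because each stage is 1 sample and no result comes from a test.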
